A study of Mus musculus with 6 samples.

Results

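The genes described here were 9 transcription factors known for driving epithelial-mesenchymal transition (*Snai1*, *Snai2*, *Zeb1*, *Zeb2*, *Twist1*, *Twist2*, *Prrx1*, *Prrx2* and *Foxc2*) and *Vim*, the intermediate filament gene commonly read as a mark of mesenchymal cells. They were chosen by name, as the rows of the expression table that carry these symbols. All 10 were found among 23420 listed genes, and all 10 were among the 17168 genes that were tested, which are those with 1 normalized count or more in 3 or more libraries. A normalized count is a gene's read number after division by its library's size factor. RNA came from whole mouse lungs at stage E11.5dpc, an early time of lung branching (*dpc*, days post coitus). The 3 control pools were Raptorf/+; ShhCre/+ and the 3 mutant pools were Raptorf/f; ShhCre/+, each pool holding 3 or 4 lungs of one genotype. Embryos of both sexes were collected, the controls were littermates of mutants, and whether the lungs of one pool shared a litter is not given in the sources used here. Both groups thus carried the Cre allele knocked in at *Shh*, which is active broadly in the lung epithelium, and at least 1 floxed allele of *Rptor* (Raptor, a component of mTORC1), so that the controls were not wild type and had 1 allele open to recombination. Lung mesenchyme, vessels and blood lie outside the known lung domain of *Shh*, and whole lungs hold all of these cells together.

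In epithelial-mesenchymal transition an epithelial cell loses its junctions and takes on the shape and motility of a mesenchymal cell. SNAI and ZEB proteins are zinc finger repressors that bind E-boxes in epithelial genes such as *Cdh1*, which encodes E-cadherin, while GRHL, OVOL and ESRP proteins and the miR-200 family oppose them. In an embryonic organ most of these factors are also normal products of the mesenchyme, where TWIST proteins (basic helix-loop-helix), PRRX proteins (paired-related homeobox) and FOXC2 (forkhead) act in cells that are already mesenchymal.

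None of the 10 genes passed the test between control and mutant lungs (limma, Benjamini-Hochberg adjusted p under 0.05 over all genes tested), where 0.501% of all tested genes did. 8 of the 10 had a higher mean log2 value in mutant lungs and 2 a lower one, and the median log2 fold change was 0.13, beside -0.0021 over all tested genes. With the libraries scaled to lung mesenchyme markers, 3 were higher and 7 lower, and the median was -0.064, beside -0.19 over all tested genes. *Vim* and *Zeb2* came closest to the threshold, with small differences. In the same libraries *Cdh1* fell, from 1507, 1522 and 1288 normalized counts in control pools 1 to 3 to 824, 630 and 753 in mutant pools 1 to 3, a log2 fold change of -0.97 (SE 0.098, limma adjusted p = 0.00728). *Cdh1* kept its direction and passed in 4 of 6 fits with 1 pool left out, and did not pass without control pool 1 or mutant pool 3, where the adjusted p reached 0.125.

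The libraries held between 20197642 and 21276090 reads on genes. *Rptor* was at 2126, 2193 and 2279 normalized counts in the controls and 2023, 2137 and 2148 in the mutants, which overlap. A count over the whole gene in whole lungs does not separate the recombined allele from the intact one, so these values do not check the genotype labels. The tissue label was met by the lung factor *Nkx2-1* at 1977 to 2686 normalized counts and by *Tbx4*, a factor of lung mesenchyme, at 3045 to 4491.

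The SNAI and ZEB proteins bind the E-box CAGGTG, read as CACCTG on the other strand. Promoters of *Krt8*, *Krt18* and *Cldn4*, which encode keratins and a claudin and fell in mutant lungs, and of *Snai1* itself are shown because they hold this E-box, the element through which these factors are known to repress epithelial genes. The window is the 250 bases before the annotated start (RefSeq, GRCm38.p6), with the E-box in capitals and the gene's own strand written 5′ to 3′. They lie at chr15:102004343-102004592 (minus strand) for *Krt8*, chr15:102027966-102028215 (plus strand) for *Krt18*, chr5:134946935-134947184 (minus strand) for *Cldn4* and chr2:167537945-167538194 (plus strand) for *Snai1*.
Krt8: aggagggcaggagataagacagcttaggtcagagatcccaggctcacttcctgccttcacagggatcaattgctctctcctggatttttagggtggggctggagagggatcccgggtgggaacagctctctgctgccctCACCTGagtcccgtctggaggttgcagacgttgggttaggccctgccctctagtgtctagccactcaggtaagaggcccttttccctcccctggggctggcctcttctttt
Krt18: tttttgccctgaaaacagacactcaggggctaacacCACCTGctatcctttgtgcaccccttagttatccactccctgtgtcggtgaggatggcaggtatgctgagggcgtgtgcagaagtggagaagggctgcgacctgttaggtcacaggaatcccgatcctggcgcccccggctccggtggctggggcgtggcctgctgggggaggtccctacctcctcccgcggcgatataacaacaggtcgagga
Cldn4: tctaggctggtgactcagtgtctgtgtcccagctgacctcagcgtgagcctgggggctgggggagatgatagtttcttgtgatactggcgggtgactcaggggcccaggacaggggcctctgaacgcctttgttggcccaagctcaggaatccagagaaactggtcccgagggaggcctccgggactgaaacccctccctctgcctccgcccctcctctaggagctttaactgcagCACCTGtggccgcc
Snai1: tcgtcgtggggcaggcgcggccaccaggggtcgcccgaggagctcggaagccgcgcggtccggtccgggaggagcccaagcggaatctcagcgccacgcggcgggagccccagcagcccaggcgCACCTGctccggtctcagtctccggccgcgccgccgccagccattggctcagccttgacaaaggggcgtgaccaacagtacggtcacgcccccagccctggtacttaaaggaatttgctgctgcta
The E-box begins 111 bases before the start in *Krt8*, 214 in *Krt18*, 14 in *Cldn4* and 126 in *Snai1*. In windows of 300 bases (250 before to 50 after the start) the E-box was present for 15 of 17 genes with a window from a list of epithelial genes known to be repressed through E-boxes (the E-box target list), beside 6098 of 27025 genes in all (22.6%), but that list was drawn up from known targets and is no independent evidence. It was present for 3 of 6 opponents of the transition, 1 of 9 mesenchymal gene products known to rise in a transition and 1 of 7 members with a window, *Snai1*. *Cdh1* had no window. Among other genes of the E-box target list that passed as lower, *Spint1* held no E-box and *Marveld2* held it only after its start. *Tjp3* held it before its start. A match of these letters is a description of the sequence and does not show binding. *Krt8* measured 1371, 1432 and 1195 normalized counts in control and 939, 878 and 899 in mutant pools, and *Krt18* 1306, 1235 and 1250 in control and 960.5, 837 and 963 in mutant pools, while *Snai1* kept overlapping groups.

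*Vim* was the most abundant of the 10. It measured 14809, 15187 and 14123 normalized counts in control pools 1 to 3 and 16937, 16241 and 16529 in mutant pools 1 to 3. All 3 mutant pools lay above all 3 control pools, and the spread within each group was small, at 14707 ± 539 (SD, n = 3) in control and 16569 ± 349 (SD, n = 3) in mutant lungs. This was a log2 fold change of 0.17, with a 95% interval from 0.084 to 0.26, or a ratio of 1.13. Its p was 0.00147 before adjustment and 0.105 after adjustment over all genes (limma). With DESeq2 on the reads recovered from the deposited values the adjusted p was 0.0170 (1.99% of the genes given an adjusted p were called), and with edgeR it was 0.104 (0.539% called). Without control pool 3 the limma adjusted p was 0.0368, where 2.75% of all genes were called, so that the call turns on the method and on 1 library. Over 16 alternatives *Vim* passed in 3, with limma adjusted p from 0.00113 to 0.776 at the extremes. The lowest came from scaling to epithelial markers, where 51.0% of all genes were called.

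*Zeb2* was the only one of the 9 transcription factors whose groups did not overlap. It measured 3281, 3593 and 3081 normalized counts in the controls and 3910, 3769 and 3674 in the mutants. The mutant pools were all above the highest control pool, by a margin smaller than the range of the controls. The log2 fold change was 0.19, with a 95% interval from 0.066 to 0.32, and p was 0.00666 before and 0.176 after adjustment (limma). Without control pool 2 the adjusted p was 0.0497 and the log2 fold change 0.25, where 0.87% of all genes were called. Over 16 alternatives *Zeb2* passed in 2, with limma adjusted p from 0.00123 to 0.975. The lowest came from scaling to epithelial markers, where 51.0% of all genes were called. *Vim* and *Zeb2* were also the 2 genes of the 10 with an unadjusted p under 0.05 on the higher side, where 6.67% of all tested genes were found, and the 2 whose mutant pools lay above the controls, as did 9.77% of all tested genes. No member lay on the lower side by either count, beside 6.89% and 10.5% of all tested genes.

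Levels of the lung mesenchyme markers moved with both genes. The summed level of 20 such markers, among them collagen genes, ran from 110013 to 116161 normalized counts in control and from 131007 to 139986 in mutant pools, with none of the 20 at 0, and 4 of them passed the test as higher (*Col1a1*, *Col1a2*, *Col3a1* and the growth factor gene *Fgf10*) and none as lower. Each of these 4 calls held in 2 to 4 of 6 fits with 1 pool left out, with no change of direction. When each library was scaled to these 20 markers, which shifted the median of all genes by -0.19 on the log2 scale, the log2 fold change was -0.017 for *Vim* and 0.0024 for *Zeb2*, and no member passed where 30.5% of all genes did. When each library was scaled instead to 20 epithelial markers, which shifted the median by 0.28, the log2 fold change was 0.45 for *Vim* and 0.47 for *Zeb2*, and 6 members passed (*Snai1*, *Snai2*, *Zeb1*, *Zeb2*, *Twist2* and *Vim*) where 51.0% of all genes did. In bulk RNA, more cells of a type and more RNA per cell cannot be told apart.

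**Figure D1:**
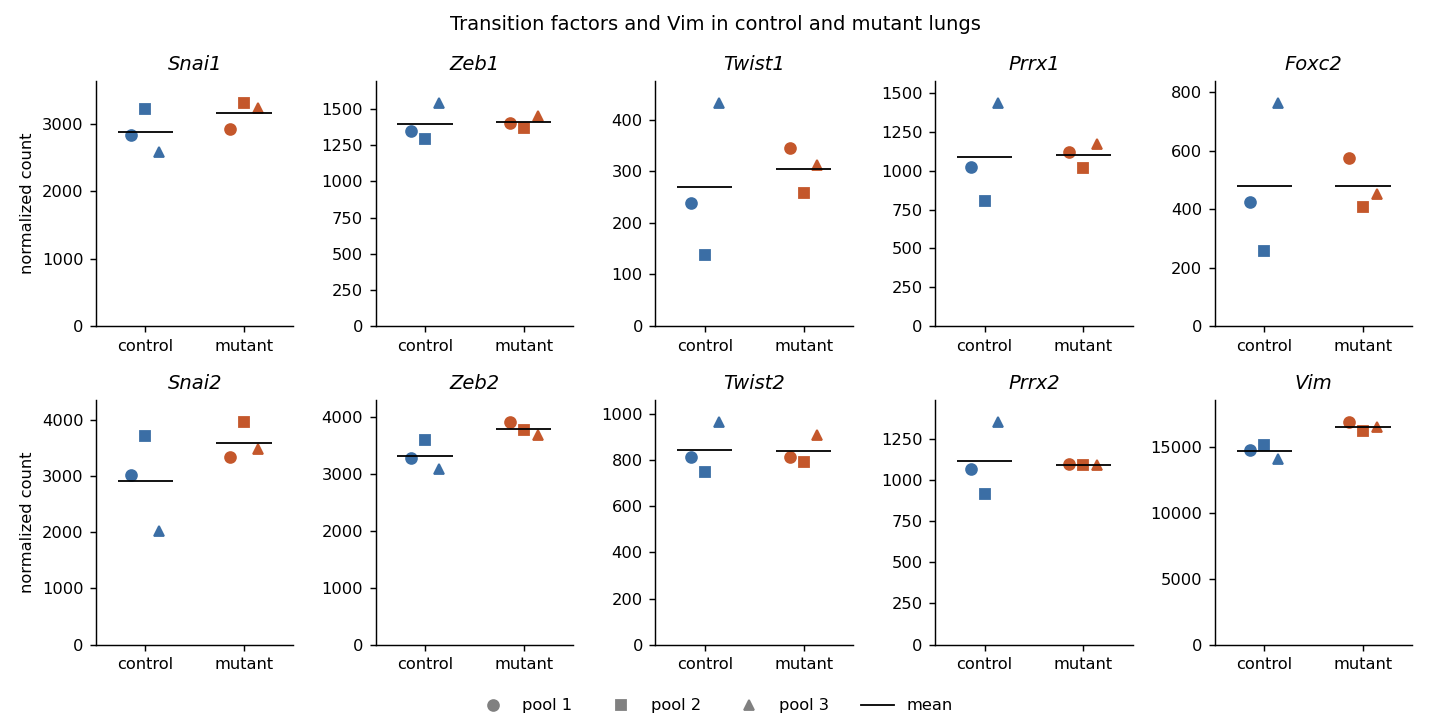
Normalized counts (vertical axis, from 0, scaled separately in each panel) of the 10 genes in 3 control pools (blue) and 3 mutant pools (orange), with marker shape giving the pool number and the black line the group mean. The mutant pools lie above all control pools for *Zeb2* and *Vim* and overlap them for the other 8 genes, and for *Twist1* and *Foxc2* control pools 2 and 3 enclose every other pool.

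*Snai1* and *Snai2* encode SNAIL and SLUG. *Snai1* measured 2843, 3232 and 2589 normalized counts in the controls and 2931, 3311 and 3236 in the mutants. The ranges overlap, since control pool 2 was above mutant pool 1. Its log2 fold change was 0.13 with a 95% interval from -0.037 to 0.30 (limma adjusted p = 0.478), and it was 0.058 without control pool 3 and 0.22 without control pool 2. *Snai2* measured 3013, 3705 and 2022 in the controls and 3342, 3965 and 3480 in the mutants. Control pools 1 and 3 were below the mutant range, pool 3 by the wider margin, while control pool 2 was inside it. *Snai2* had the largest mean difference of the 10, a log2 fold change of 0.34 with a 95% interval from -0.038 to 0.72 (limma adjusted p = 0.413), and it was 0.10 without control pool 3 and 0.54 without control pool 2. The log2 ratio of *Snai1* to *Snai2* within a pool was 0.025 ± 0.29 (SD, n = 3) in control and -0.18 ± 0.078 (SD, n = 3) in mutant lungs (exact permutation test, two-sided, p = 0.3, adjusted over 5 ratios 0.5). The difference of -0.21 was -0.044 without control pool 3 and -0.32 without control pool 2.

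*Zeb1*, the relative of *Zeb2*, measured 1348, 1294 and 1541 normalized counts in the controls and 1404, 1369 and 1453 in the mutants. The mutant pools lay inside the control range. Its log2 fold change was 0.018 with a 95% interval from -0.13 to 0.16 (limma adjusted p = 0.931), an interval that ends at a ratio of 1.12. The log2 ratio of *Zeb1* to *Zeb2* was -1.25 ± 0.24 (SD, n = 3) in control and -1.43 ± 0.076 (SD, n = 3) in mutant lungs (exact permutation test, two-sided, p = 0.3, adjusted 0.5). The difference of -0.17 was -0.048 without control pool 3 and -0.28 without control pool 2.

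*Twist1* was the least abundant member by count. It measured 239, 137 and 431 normalized counts in the controls and 345, 258 and 311 in the mutants. All 3 mutant pools fell between control pool 2, the lowest of all 6, and control pool 3, the highest. The log2 fold change was 0.32 with a 95% interval from -0.38 to 1.03 (limma adjusted p = 0.709). It was 0.74 without control pool 3 (adjusted p = 0.0560) and -0.084 without control pool 2. *Twist2* measured 816, 752 and 968 in the controls and 814, 794 and 910 in the mutants, and its log2 fold change was -0.0048 with a 95% interval from -0.21 to 0.20. Of the exon bases of *Twist2*, 46.5% are overlapped by *Gm29100* on the opposite strand, and since the strand setting of the counting is not given in the sources used here, reads of the 2 genes cannot be told apart. The log2 ratio of *Twist1* to *Twist2* differed by 0.33 between the groups (exact permutation test, two-sided, p = 0.5, adjusted 0.6), less than its SD of 0.64 over the controls. It was 0.64 without control pool 3 and 0.00057 without control pool 2.

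*Prrx1* measured 1026, 805 and 1436 normalized counts in the controls and 1123, 1017 and 1172 in the mutants. *Prrx2* measured 1069, 915 and 1353 in the controls and 1094, 1089 and 1091 in the mutants. For both genes every mutant pool lay between control pools 2 and 3. The *Prrx2* values of the mutant pools had a coefficient of variation of 0.230%. At this count that is less than the random error of counting reads, so it does not measure the spread between lungs. The log2 fold change was 0.058 for *Prrx1*, with a 95% interval from -0.31 to 0.42, and -0.0081 for *Prrx2*, with an interval from -0.26 to 0.24. The log2 ratio of *Prrx1* to *Prrx2* differed by 0.066 (exact permutation test, two-sided, p = 0.6, adjusted 0.6), by 0.14 without control pool 3 and by -0.00064 without control pool 2. *Foxc2* measured 424, 255 and 761 in the controls and 574, 407 and 451 in the mutants, again inside the control range. Its log2 fold change was 0.12 with a 95% interval from -0.56 to 0.80 (limma adjusted p = 0.904), 0.52 without control pool 3 and -0.27 without control pool 2. The intervals of the ratio ran from 0.766 to 2.04 for *Twist1* and from 0.676 to 1.74 for *Foxc2*. With 3 pools a group, the values were thus compatible with any ratio inside these bounds.

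**Figure D2:**
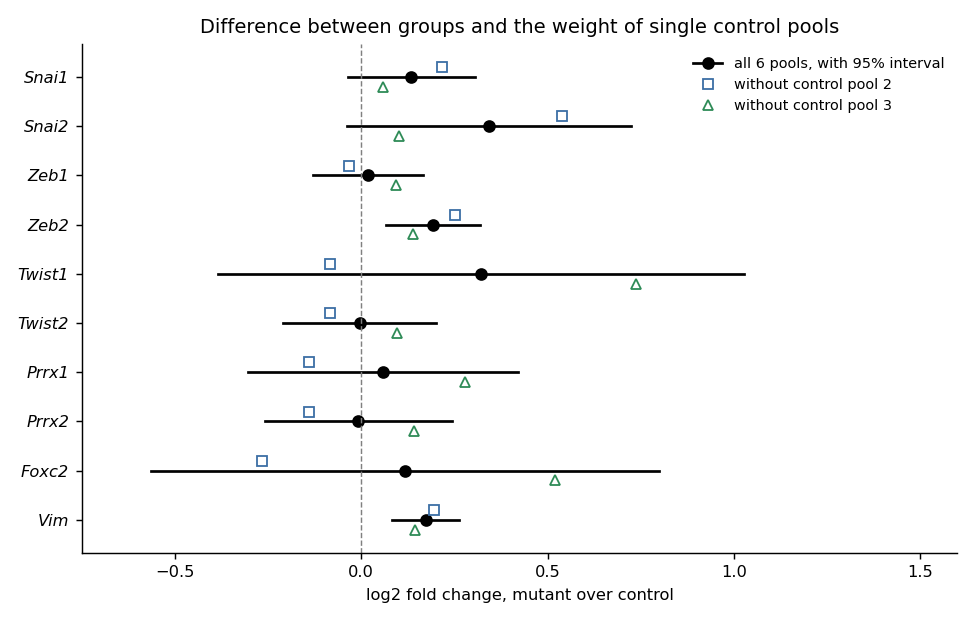
Log2 fold change of mutant over control lungs for each gene (horizontal axis), with the 95% interval of the limma fit over all 6 pools (black) and the value when control pool 2 (open squares) or control pool 3 (open triangles) is left out. Only the intervals of *Zeb2* and *Vim* lie wholly above 0, and for *Zeb1*, *Twist1*, *Twist2*, *Prrx1*, *Prrx2* and *Foxc2* the 2 open symbols fall on opposite sides of 0.

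The 10 genes fell into 2 patterns by where control pool 3 stood among the 6 pools. *Zeb1*, *Twist1*, *Twist2*, *Prrx1*, *Prrx2* and *Foxc2* were each highest of the 6 pools in control pool 3 and lowest in control pool 2, as were 7.18% of all tested genes. *Snai1*, *Snai2*, *Zeb2* and *Vim* were each lowest in control pool 3, as were 24.0% of all tested genes. The control pools spanned a wider range than the mutant pools for 10 of 10 members, and for 62.0% of all tested genes. The median coefficient of variation of the members was 16.5% over control and 6.78% over mutant pools. This pattern was described after the values were seen.

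Other regulators shared the first pattern, 6 of 21 in the list of further transition regulators, beside 7.18% of all tested genes. So did 3 of 10 smooth muscle, 3 of 20 mesenchyme and 2 of 12 cardiac markers. For epithelial and mesothelial markers it was 2 of 20 and 1 of 9. Endothelial, macrophage and neural crest markers had it in 0 of 13, 0 of 9 and 0 of 12. *Foxc1*, the close relative of *Foxc2*, measured 719, 393 and 1153 normalized counts in the controls and 792, 541 and 710 in the mutants. The embryonic globin gene *Hbb-bh1*, named after its values were seen, measured 9007, 4545 and 15059 in the controls and 7355, 6460 and 7049 in the mutants. In both genes control pool 3 was highest and control pool 2 lowest. The summed level of 8 tested erythroid markers moved the same way within the controls, at 107639, 96394 and 124524 in pools 1 to 3. In mutant pools it ran from 95676 to 119005. Of the 8, 5 had control pool 3 highest and control pool 2 lowest. The rows of *Hba-a1* and *Hba-a2* were at 0 in every library, which does not by itself show that their RNA was absent. Of 13 endothelial markers 9, and of 9 macrophage markers 7, were lowest in control pool 3, as *Snai1*, *Snai2*, *Zeb2* and *Vim* were. So were 9 of 20 mesenchyme, 6 of 10 smooth muscle and 4 of 9 mesothelial markers, beside 24.0% of all tested genes. Among epithelial, neural crest, cardiac and erythroid markers it was 2 of 20, 2 of 12, 1 of 12 and 0 of 8. The part of blood, vessel or dissection differences in the members' values was not tested.

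**Figure D3:**
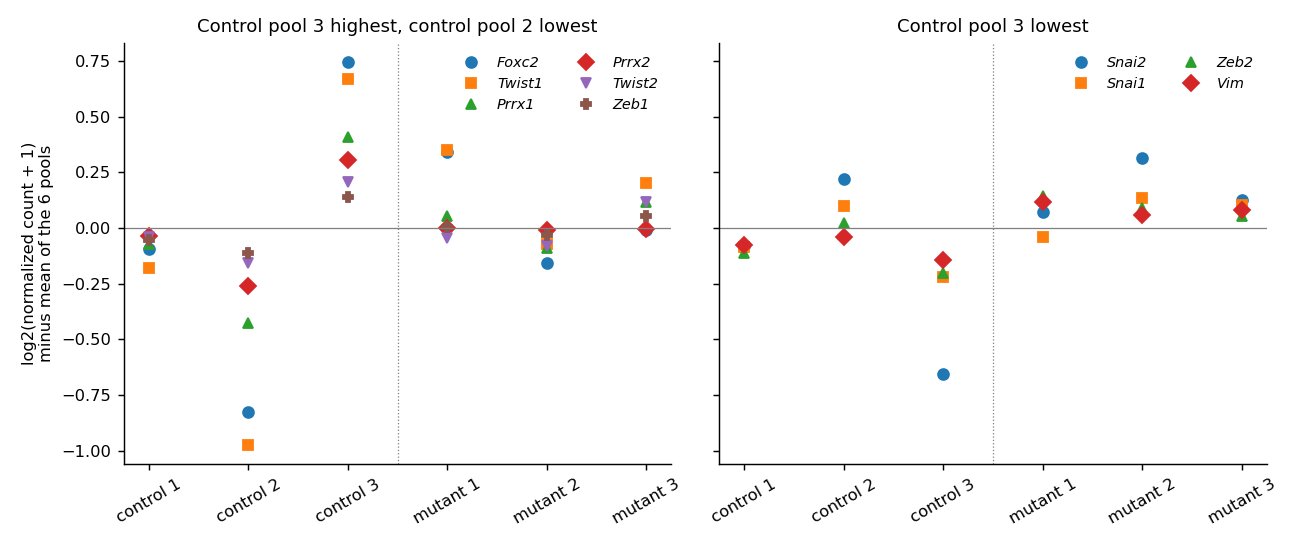
Deviation of each gene's log2(normalized count + 1) from its mean over the 6 pools (vertical axis) in each pool (horizontal axis), with control pools left and mutant pools right of the dotted line. In the left panel 6 genes are highest in control pool 3 and lowest in control pool 2, and in the right panel 4 genes are lowest in control pool 3, with *Foxc2* and *Twist1* and then *Snai2* spread most widely.

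Per kilobase of exon, the control means ran from *Vim* at 3101 normalized counts through *Snai1* at 1781, *Snai2* at 1442, *Prrx2* at 567, *Twist2* at 266, *Foxc2* at 176, *Zeb2* at 166, *Twist1* at 165 and *Zeb1* at 136 to *Prrx1* at 98.4. The control pools of *Snai1* and *Snai2* overlapped, as did those of each neighbouring pair from *Twist2* to *Prrx1*. *Vim*, the *Snai* pair and *Prrx2* were separated from the next lower gene in every control pool. On this scale *Snai1* and *Snai2* stood above *Zeb1* and *Zeb2*, although *Zeb2* had the largest count of the 9 factors in control lungs. Exons merged over all annotated transcripts span 19942 bases for *Zeb2* against 1621 for *Snai1*. Such a merged length can exceed that of any single transcript, which lowers the value per kilobase, so the order of close genes is approximate.

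*Vim* lies on chromosome 2 (chr2:13573927-13582826, plus strand, GRCm38), as do *Snai1* (chr2:167538195-167542814, plus strand), *Zeb2* (chr2:44983632-45117395, minus strand) and *Prrx2* (chr2:30834972-30881251, plus strand). Exons of *Zeb2* are overlapped by other genes over 3.32% of their bases, including its antisense gene *Zeb2os*. *Snai2* lies at chr16:14705852-14709385 (plus strand), *Twist1* at chr12:33957671-33959829 (plus strand), *Twist2* at chr1:91801461-91848028 (plus strand), *Prrx1* at chr1:163245119-163313710 (minus strand) and *Foxc2* at chr8:121116171-121118895 (plus strand). *Snai1*, *Snai2*, *Twist1*, *Prrx1*, *Prrx2*, *Foxc2* and *Vim* share no exon bases with another annotated gene.

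The genes whose pattern over the 6 pools was most like that of *Vim*, by the smallest root mean square difference of log2 values centred on each gene's mean among 11457 tested genes of mean count at least 100, were *Slc9a3r2* (0.00879), which encodes a PDZ scaffold protein, *Sri* (0.0124), which encodes a calcium-binding protein, and *Wwtr1* (0.0151). *Wwtr1*, which encodes the Hippo pathway coactivator TAZ, measured 1907, 2015 and 1827 normalized counts in the controls and 2184, 2091 and 2139 in the mutants. None of the 3 passed the test, with limma adjusted p of 0.195, 0.202 and 0.189 in the order given.

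Among 21 further transition regulators none passed the test in either direction, 3 were higher and 1 lower at an unadjusted p under 0.05, and the median log2 fold change was 0.0076. The E-protein genes *Tcf3* and *Tcf4*, whose products partner the TWIST factors, had log2 fold changes of 0.040 and 0.0065. The values were -0.034 for *Sox4*, -0.033 for *Foxc1* and -0.088 for the chromatin protein gene *Hmga2*. *Snai3*, the third gene of its family, was near the limit of detection at 3.92 to 14.7 normalized counts. Of 11 intermediate filament genes none passed the test, 2 were higher at an unadjusted p under 0.05 (*Vim* being a member described above and not one of the 11), and the neural filament gene *Nes* had a log2 fold change of -0.011 and the muscle filament gene *Des* 0.20 (limma adjusted p = 0.133).

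Of 16 mesenchymal products that rise in a transition, 1 passed the test. *Cdh2*, which encodes N-cadherin, measured 3372, 3496 and 3204 normalized counts in the controls and 3992, 3961 and 3977 in the mutants, with no overlap. It rose by 0.25 on the log2 scale (SE 0.043, limma adjusted p = 0.0415), and the call was lost without control pool 1 and without each mutant pool in turn, with adjusted p up to 0.269. The matrix genes *Fn1* and *Sparc* did not pass, with log2 fold changes of -0.12 and 0.14, and *Fn1* was highest in control pool 3 at 18547. The median over the 16 was 0.051.

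The epithelial lists moved in the other direction. Of 17 opponents of the transition 13 were tested. Of these 1 passed as lower (*Grhl2*, log2 fold change -0.41, limma adjusted p = 0.0415) and 7 were lower at an unadjusted p under 0.05, with a median of -0.50. *Ovol2* and *Esrp1* had log2 fold changes of -0.57 and -0.40 and did not pass. The rows of *Mir200b*, *Mir200c* and *Mir141* were at 0 in every library, and a precursor row of this kind does not measure the mature miRNA. Of 22 tested genes of the E-box target list, 7 passed as lower (*Cdh1*, *Cldn4*, *Krt8*, *Krt18*, *Tjp3*, *Marveld2* and *Spint1*, all of junctions, keratin filaments or epithelial membranes), none passed as higher, and the median was -0.49. The 1 gene of this list with a higher mean was *Krt19*, a keratin gene also counted among the mesothelial markers, at 0.44. Its mutant pools all lay above its control pools, and it did not pass. *Epcam* had -0.27 and did not pass. The general epithelial markers were lower too, with a median of -0.25, 3 of 20 passing (*Irx2*, *Cldn6* and *Lamb3*), and their summed level ran from 30086 to 33344 in control and from 25226 to 27181 in mutant pools with none at 0. With 1 pool left out, the calls of these 11 epithelial genes held in 1 to 4 of 6 fits each, and no direction changed. The part of the epithelial share of the tissue in these values was not tested.

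Other cells of the lung are known to express *Vim* and *Zeb2* too. Of 13 endothelial markers none passed the test and 8 were higher at an unadjusted p under 0.05, with a median of 0.18, a summed level from 15724 to 17793 in the controls and from 18288 to 18958 in the mutants, and none at 0. *Pecam1*, which encodes an endothelial adhesion molecule, had 0.070 on the log2 scale. Of 9 mesothelial markers 1 passed as higher (*Wt1*, log2 fold change 0.31, limma adjusted p = 0.0496, which did not pass in 5 of 6 fits with 1 pool left out). The summed level ran from 9049 to 9572 in control and 10311 to 10944 in mutant pools for the mesothelial markers and from 11495 to 14624 and 15583 to 15972 for the smooth muscle markers, with none at 0. No call was made among 10 smooth muscle, 12 neural crest, 9 macrophage, 8 erythroid or 12 cardiac markers, whose medians were 0.24, -0.018, 0.14, -0.0065 and -0.41. Among the mesenchyme markers *Col1a1* had 0.49 on the log2 scale (limma adjusted p = 0.0125), *Foxf1* 0.034, *Pdgfra* 0.094 and *Tbx4* 0.11. The part of these cells in the values of *Vim* and *Zeb2* was not tested.

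**Figure D4:**
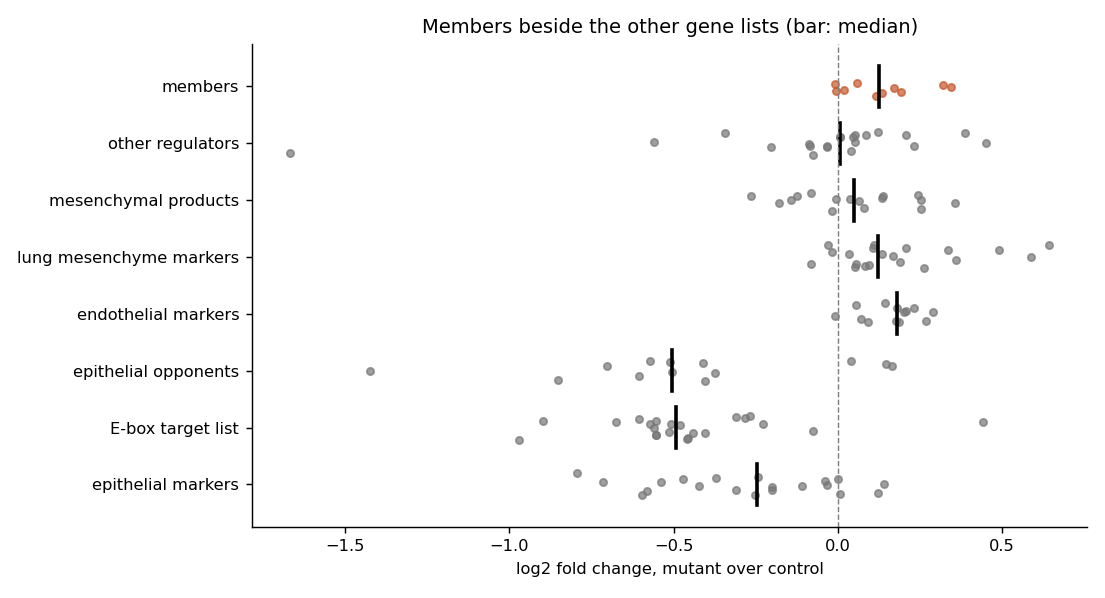
Log2 fold change of mutant over control lungs (horizontal axis) for each tested gene of 8 lists, with the 10 members in orange, the other genes in grey and a black bar at each median. The members centre on 0.13 and the lung mesenchyme markers on 0.12. The epithelial opponents and the E-box target list centre on -0.50 and -0.49. Scaled to the mesenchyme markers (not drawn), the members centre on -0.064 and all tested genes on -0.19.

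The log2 ratio of *Vim* to *Cdh1* within a pool was 3.30, 3.32 and 3.45 in the controls and 4.36, 4.68 and 4.45 in the mutants. The groups did not overlap, at 3.36 ± 0.085 and 4.50 ± 0.17 (SD, n = 3 each), and the ratio differed by 1.14. The exact permutation test (two-sided) gave p = 0.1, the smallest that 3 against 3 pools allow, and 0.5 after adjustment over 5 ratios. In the main fit 0.97 of this difference came from *Cdh1* and 0.17 from *Vim*. The ratio does not depend on the scaling of the libraries, but this split does. The log2 fold change of *Vim* was -0.017 scaled to the mesenchyme markers and 0.45 scaled to the epithelial markers.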

How the data were processed

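RNA of 6 pools of whole lungs at stage E11.5dpc (3 control, 3 mutant) was grouped by the genotype labels. The authors deposited 1 table of signal values, which are normalized counts (the reads of a gene after division by a library size factor). The submitters' processing notes name Trim Galore, HISAT2, featureCounts, DESeq2 and mm10, with no versions, and the strand setting is not given in the sources used here. Log2 fold changes, standard errors, test statistics (a score) and p-values deposited by the authors, and their mean column, were not used.

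All deposited values were whole multiples of one step per library (tolerance 0.01 reads), which gave back whole reads of 20197642 to 21276090 per library. The main test was limma 3.58.1 in R 4.3.3 with a variance trend on log2(normalized count + 1), for genes at 1 or more in 3 or more libraries. The threshold was 0.05 after Benjamini-Hochberg adjustment, and no replicate block was used. A log2 fold change is on that scale. edgeR 4.0.16 and DESeq2 1.42.0 were run on the recovered reads as alternatives, beside other pseudocounts, filters and scalings and each pool left out in turn. The tests were checked on simulated data. Paralog ratios were compared by exact permutation tests. Pools hold different lungs, and p-values measure the spread between pools.

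Exons were taken from GENCODE M21 (GRCm38) and promoters from RefSeq, GRCm38.p6. Genes named were the 10 members, *Rptor*, list genes that passed the test, a fixed set of reference genes and the 3 genes closest to *Vim*. *Nkx2-1* (a check of the tissue), *Hbb-bh1*, *Krt19*, genes overlapping a member and list genes at 0 in every library were named after their values were seen. The members and lists were chosen with earlier results of these data known.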

Additional observations from a re-analysis of the deposited data

How the results depend on the processing

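None of the 10 genes passed the threshold in the main test or with limma without a variance trend, a pseudocount of 0.1, no filter, a minimum of 10 in every library, upper-quartile scaling, scaling to the mesenchyme markers, the replicate block or edgeR. DESeq2 passed 1 (*Vim*), scaling to the epithelial markers passed 6 (*Snai1*, *Snai2*, *Zeb1*, *Zeb2*, *Twist2* and *Vim*), and leaving out 1 pool passed 0 to 1. Over single genes and alternatives 131 of 160 values kept direction and side of the threshold, 21 changed sign and 9 passed the threshold, *Twist2* under epithelial scaling doing both. Over all genes 86 were called, with 8 without the variance trend, 5243 scaled to the mesenchyme markers (31 higher, 5212 lower), 8760 scaled to the epithelial markers (8643 higher, 117 lower), 278 with DESeq2, 79 with edgeR and 1 to 468 when 1 pool was left out (1 without control pool 1 or mutant pool 3, 468 without control pool 3).

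The members' median log2 fold change of 0.13 became -0.064 scaled to the mesenchyme markers and 0.40 scaled to the epithelial markers, and -0.059 to 0.15 with 1 pool left out (-0.059 without control pool 2). Signs turned under mesenchyme scaling for *Snai1* (-0.056), *Zeb1* (-0.17), *Prrx1* (-0.13), *Foxc2* (-0.072) and *Vim* (-0.017), under epithelial scaling for *Twist2* (0.27) and *Prrx2* (0.27), under upper-quartile scaling for *Twist2* (0.000225), and for *Foxc2* with edgeR (-0.013) and DESeq2 (-0.0094). With 1 pool left out the log2 fold change ran from -0.033 to 0.092 for *Zeb1*, -0.084 to 0.74 for *Twist1*, -0.085 to 0.097 for *Twist2*, -0.14 to 0.28 for *Prrx1*, -0.14 to 0.14 for *Prrx2* and -0.27 to 0.52 for *Foxc2*, and the log2 ratio of *Prrx1* to *Prrx2* from -0.00064 to 0.14. Each scaling divides a library by a factor of its own, so all genes shift by nearly the same amount. The median of all genes shifted by -0.19 with the mesenchyme and by 0.28 with the epithelial markers. The cause of the other changes was not tested.

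With the replicate number as a block 71 genes were called and no member. Deviations of same-numbered pools correlated at -0.019, 0.10 and 0.031, and those of differently numbered pools at -0.11 to 0.084. These few values cannot settle whether the numbers pair the pools, which is not given in the sources used here. With 3 pools a group, no exact test of a ratio can go below 0.1, and the wide control range of *Twist1* and *Foxc2* limits what could be detected.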
